A study of Rattus norvegicus with 10 samples.

Results

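The detoxification genes Abcc3, Gsta3, Akr7a3, Aldh1a1 and Aldh1a7, together with 1 unnamed probe set, are described here in rat liver. They are grouped for a wide spread among control rats, which could be measured for the first 4 genes and the unnamed probe set. The members were probe sets whose platform symbol equals 1 of the 5 gene symbols, plus that probe set. Of the 5 symbols, 4 had 1 probe set each and Aldh1a7 had 0, so 5 of 31042 probe sets were followed. The annotation used here gives the unnamed probe set no gene, and the plots show it by its identifier. The members were selected on the spread of these log2 signals among controls, so that spread is a description and was not tested.

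Livers came from 10 Harlan Sprague Dawley rats of unstated age and sex, with 1 biotin-labelled Affymetrix rat genome expression array per animal. The 5 HMB rats ate feed with 10000 ppm HMB (2-hydroxy-4-methoxybenzophenone, or oxybenzone, an ultraviolet filter of sunscreens) for 13 weeks, and the 5 control rats received 0 ppm. All rats were kept 5 per cage on NTP-2000 diet, with no cage, litter or array batch given for an animal, so a difference between cages cannot be told apart from HMB. HMB 1 carries a dose label of 0 ppm against its title and chemical label, which both read HMB, and it was kept in the HMB group with results given both ways. Transcripts of the Y-linked gene Uty lay between 7.56 and 8.02 in HMB rats and between 7.61 and 7.98 in controls on the log2 scale, and Xist stayed between 2.20 and 2.70 on all 10 arrays. The number of arrays limits the precision of every value.

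Detoxification in hepatocytes runs from oxidation or reduction of a foreign compound, through its conjugation to glutathione or glucuronic acid, to export of the conjugate. Several of its genes are switched on in rat liver by drugs through the receptors CAR and PXR, and by electrophiles through the transcription factor NRF2, which binds antioxidant response elements (AREs). Abcc3, also called Mrp3, is a transporter of the sinusoidal membrane that moves glucuronides and bile acids from hepatocytes to blood. Gsta3 (synonym Yc2) is an alpha-class glutathione S-transferase, and Akr7a3 (synonym Afar) is the rat aldo-keto reductase that reduces aflatoxin dialdehyde. Aldh1a1 oxidises retinaldehyde and other aldehydes, and Aldh1a7 is its close relative in rodents.

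Promoter windows are shown for the 3 members that have one in the RefSeq table of assembly GRCr8, because these 3 were high and low in the same controls. Each window runs from 250 bases before to 50 bases after an annotated start, 5′ to 3′ on the gene's strand. Gsta3 is at chr9:31154739-31155038, Akr7a3 at chr5:156876471-156876770 and Aldh1a1 at chr1:227537370-227537669, all on the plus strand. Capitals mark matches, on either strand, to the ARE core TGACNNNGC and to GCGTG, the core of the xenobiotic response element bound by the aryl hydrocarbon receptor.
Gsta3: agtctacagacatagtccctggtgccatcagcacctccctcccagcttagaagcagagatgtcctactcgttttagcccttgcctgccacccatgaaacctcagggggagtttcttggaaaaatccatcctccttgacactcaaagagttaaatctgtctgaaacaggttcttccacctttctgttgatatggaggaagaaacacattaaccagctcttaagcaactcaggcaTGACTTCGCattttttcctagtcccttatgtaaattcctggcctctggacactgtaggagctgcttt
Akr7a3: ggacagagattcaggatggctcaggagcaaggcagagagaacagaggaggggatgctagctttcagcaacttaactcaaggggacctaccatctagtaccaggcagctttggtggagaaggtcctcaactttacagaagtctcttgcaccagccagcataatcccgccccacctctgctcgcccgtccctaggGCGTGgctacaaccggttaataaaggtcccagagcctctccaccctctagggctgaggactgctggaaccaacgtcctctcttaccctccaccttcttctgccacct
Aldh1a1: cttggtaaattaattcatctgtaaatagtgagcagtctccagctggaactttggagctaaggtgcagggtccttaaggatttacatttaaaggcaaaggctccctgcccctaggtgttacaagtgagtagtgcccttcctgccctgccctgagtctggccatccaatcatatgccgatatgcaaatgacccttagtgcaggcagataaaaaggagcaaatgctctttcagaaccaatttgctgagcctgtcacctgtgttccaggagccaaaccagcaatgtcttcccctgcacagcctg
The Gsta3 window held 1 ARE core, at bases 234 to 242, and no GCGTG. The Akr7a3 window held 1 GCGTG, at bases 194 to 198, and the Aldh1a1 window held neither. A second annotated start of Gsta3, at chr9:31166793-31167092, had 1 GCGTG. Over all 33469 windows of this length in the table, 12.1% held the ARE core and 29.7% held GCGTG. These matches are letters in a window and say nothing of binding.

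Abcc3, Gsta3, Akr7a3 and Aldh1a1 were each bright in controls 1 and 3, at about the level of the HMB rats, and lower in controls 2, 4 and 5. The unnamed probe set was bright in all 5 HMB rats and, among controls, near that level in control 3, intermediate in control 5 and low in the others. The 5 HMB rats lay close together for every member. Values are log2 signals as the authors deposited them, so a difference of 1 is a doubling, and signals of different probe sets are not compared.

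Gsta3 had log2 signals of 8.58, 8.81, 8.80, 8.87 and 9.23 in HMB rats 1 to 5, against 8.74, 6.90, 8.61, 7.08 and 6.81 in controls 1 to 5. Controls 1 and 3 fell inside the HMB range, and the other 3 controls lay at least 1.52 below control 3. The SD was 0.24 in HMB rats and 0.96 in controls.

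Abcc3 showed 5.89, 6.24, 6.01, 6.07 and 6.46 in HMB rats 1 to 5, against 5.89, 3.95, 5.93, 5.00 and 4.00 in controls 1 to 5. Control 3 lay inside the HMB range and control 1 just below it, while control 4 was intermediate and controls 2 and 5 were lowest. From the lowest to the highest animal the signal differed 1.48-fold in HMB rats and 3.96-fold in controls.

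Akr7a3 measured 11.57, 11.35, 11.43, 11.34 and 11.97 in HMB rats 1 to 5, against 11.81, 10.69, 11.53, 10.35 and 10.56 in controls 1 to 5. Again controls 1 and 3 stood inside the HMB range, with the other 3 below it. The lowest-to-highest span was 1.55-fold in HMB rats and 2.75-fold in controls.

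Aldh1a1 reached 11.50, 11.59, 11.54, 12.09 and 12.11 in HMB rats 1 to 5, against 11.57, 11.07, 11.86, 10.28 and 10.51 in controls 1 to 5. The same 2 controls were inside the HMB range, and control 2 lay nearest below it. The span was 1.53-fold in HMB rats and 2.99-fold in controls.

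The unnamed probe set read 9.33, 9.45, 8.91, 9.05 and 9.72 in HMB rats 1 to 5, against 3.73, 3.17, 8.78, 2.55 and 5.94 in controls 1 to 5. All 5 controls lay below all 5 HMB rats, with control 3 nearest to them and 2.84 above control 5, the next control. The signal spanned 1.75-fold in HMB rats. No fold is given among controls, since no detection calls were used and the lowest signals were not shown to be above background. Control 1, which was high for the 4 named genes, was low here.

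**Figure D1:**
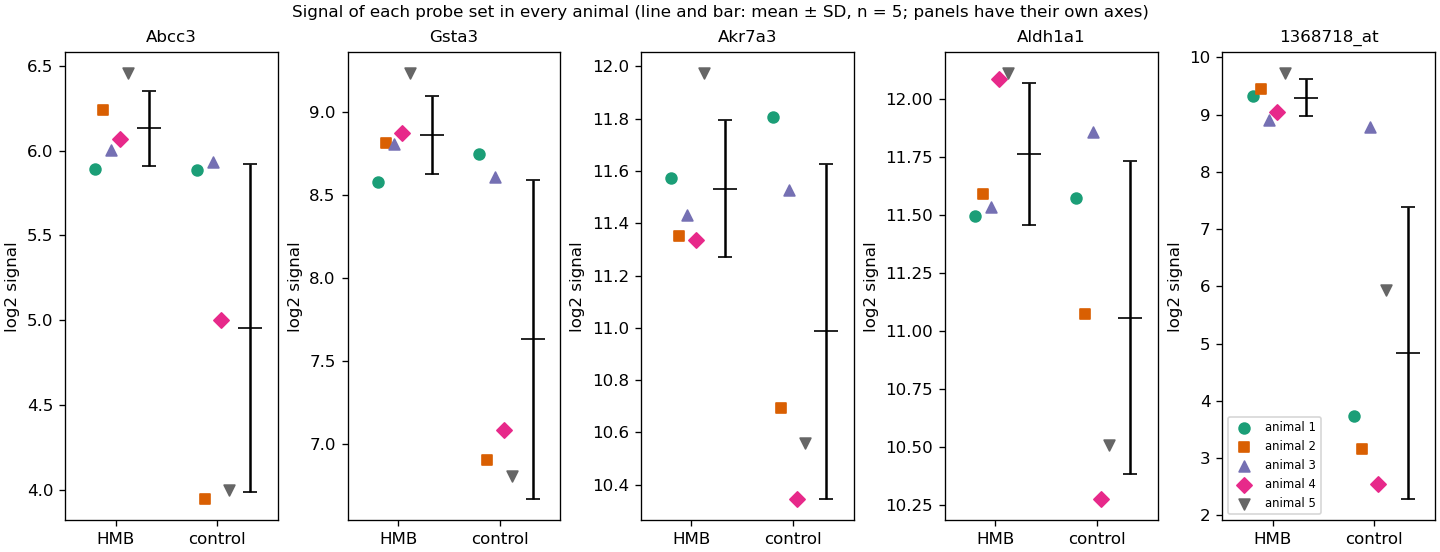
Log2 signal (vertical axis, a separate scale for each panel) of the 4 named genes and the unnamed probe set in HMB rats (left) and controls (right), with mean and SD over 5 animals; animal numbers do not pair the groups. Controls 1 and 3 sit near the HMB rats for the 4 named genes, and control 3 alone does so for the unnamed probe set.

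The spread among controls that chose the members placed them high among all probe sets. By control SD, the unnamed probe set (2.55) ranked 2 of 31042, Abcc3 (0.97) ranked 31, Gsta3 (0.96) 32, Aldh1a1 (0.67) 127 and Akr7a3 (0.64) 160. In HMB rats the SDs were 0.32 for the unnamed probe set, 0.22 for Abcc3, 0.24 for Gsta3, 0.31 for Aldh1a1 and 0.26 for Akr7a3, against a median of 0.16 over all probe sets. These put the members among the 7.53% (the unnamed probe set) to 26.8% (Abcc3) widest probe sets in HMB rats, so they were above the median there too. The control SD was 2.19 times (Aldh1a1) to 7.93 times (the unnamed probe set) the HMB SD. Over all probe sets the control SD was the larger in 48.1%, and its median was 0.16 in each group. Those probe sets were not chosen on control SD, whereas a larger control SD follows in part from the choice of the members. Of 211 probe sets with a control SD of at least 0.6, 71 had an HMB SD of at most 1/3. This fixed limit is just above the HMB SD of the unnamed probe set (0.32).

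**Figure D2:**
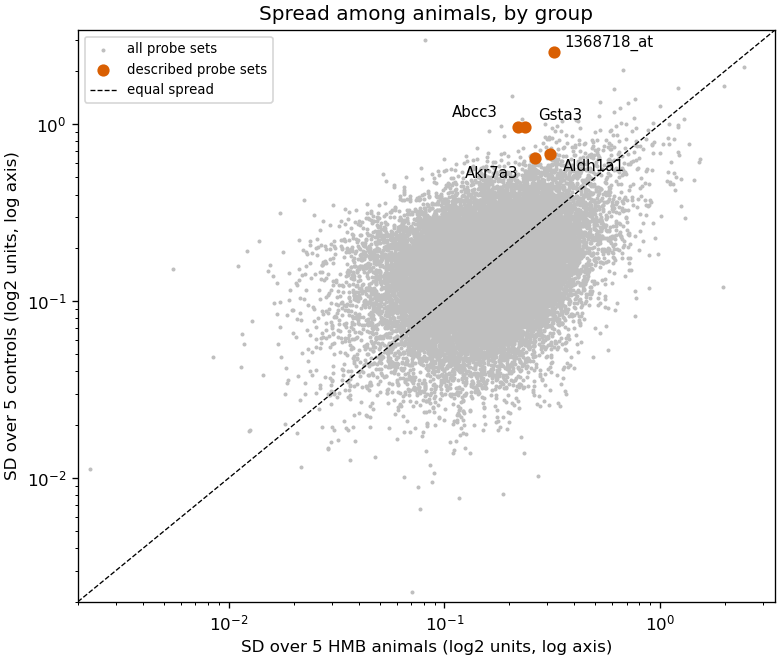
SD over 5 HMB rats (horizontal) against SD over 5 controls (vertical), both in log2 units on log axes, for 31042 probe sets in grey and the 5 members in orange. The members lie above the line of equal spread, with the unnamed probe set at 0.32 in HMB rats and 2.55 in controls.

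Co-variation was described by order, since 5 animals are too few for a correlation within a group. There are 10 pairs of animals in a group, and for any 2 members the number of these pairs that both order the same way was counted. A given member and a typical probe set of the array shared 5 of 10. Among HMB rats the 10 combinations of members shared from 4 (Akr7a3 with Gsta3 or Aldh1a1) to 10 (Gsta3 with Aldh1a1), and among controls from 5 (Gsta3 with the unnamed probe set) to 9 (Akr7a3 with Aldh1a1). The median was 7 in both groups. Without HMB 5 the median share of HMB pairs ordered alike was 50%, that of a typical probe set, against 70% with all HMB rats, and it was 60% after cyclic loess or quantile normalization.

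HMB 5 was the highest HMB rat for all 5 members, where over all probe sets HMB 5 was highest in 20.7%. HMB 1 was the lowest HMB rat for Abcc3, Gsta3 and Aldh1a1, HMB 4 for Akr7a3 and HMB 3 for the unnamed probe set. Among controls, Gsta3 and Akr7a3 were highest in control 1, and Abcc3, Aldh1a1 and the unnamed probe set in control 3. The lowest control was control 2 for Abcc3, control 5 for Gsta3 and control 4 for Akr7a3, Aldh1a1 and the unnamed probe set.

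A shared score was formed for each animal as the mean over the 5 members of the deviation from its group's mean, each divided by the SD of these deviations over the 10 arrays. It was -0.25, -0.11, -0.24, 0.00 and 0.59 in HMB rats 1 to 5, against 1.05, -0.84, 1.61, -1.01 and -0.82 in controls 1 to 5. Most of its spread was among controls, which follows from choosing the members on their spread there. As a description over the 10 arrays, which share their group centring, each member was set against the score of the other members. Pearson's r was 0.94 for Gsta3, 0.87 for Akr7a3, 0.83 for Aldh1a1, 0.78 for Abcc3 and 0.46 for the unnamed probe set. Without controls 1 and 3, the arrays farthest from the median score, it was 0.91 for Gsta3, 0.83 for Akr7a3, 0.60 for Aldh1a1, 0.46 for Abcc3 and 0.32 for the unnamed probe set. The r fell more for Abcc3 and Aldh1a1 than for Gsta3 and Akr7a3. Deviations were still taken from the mean of all 5 controls, here and for every r given below without controls 1 and 3. The scores of controls 2, 4 and 5 thus stayed negative as a block. Such an r therefore does not take out the part of controls 1 and 3.

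Other genes were ranked by the same r with the shared score over the 10 arrays, among 1185 named genes with a within-group SD of at least 0.3. Cryl1, a crystallin-like dehydrogenase of the glucuronate pathway, was nearest at 0.89 (0.80 without controls 1 and 3). It had 8.55, 8.63, 8.02, 8.49 and 8.74 in HMB rats 1 to 5, against 8.69, 7.80, 8.52, 7.59 and 7.59 in controls 1 to 5. As for Gsta3, Akr7a3 and Aldh1a1, controls 1 and 3 lay within the HMB range and the other 3 below it. Acsm5, a medium-chain acyl-CoA synthetase, followed the score at 0.82 (0.71 without them), with 9 of 10 HMB pairs and 8 of 10 control pairs in the score's order. Its signals ran from 7.99 to 8.89 in HMB rats and from 7.29 to 8.68 in controls, with control 3 the highest control.

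The other 8 of the 10 nearest genes were Dact2 (0.85), Lypd8l1 (0.85), Flt1, a receptor of vascular growth factors (0.81), Akap5 (0.78), Cacna1f (0.76), Ddit4l (0.75), Klhl33 (0.74) and Fn3k (0.73), a kinase of glycated proteins. The group means of Lypd8l1, Flt1, Akap5, Cacna1f and Klhl33 were 3.37 to 4.22, under the array medians (4.33 to 4.41). With no detection calls used, these low signals were not shown to be above background. None of the 10 passed the comparison of HMB with control (limma adjusted p from 0.170 to 0.915). The 5 most opposed genes were Nlrc5, a regulator of antigen presentation genes, at -0.94, Sema4a and Adora2b, an adenosine receptor, at -0.84 each, Rhof at -0.80 and Slc34a2, a sodium-phosphate cotransporter, at -0.79. Nlrc5 had 4.91, 5.06, 5.35, 4.87 and 4.65 in HMB rats 1 to 5, against 4.75, 5.43, 4.55, 5.49 and 5.44 in controls 1 to 5, so its lowest animals were control 3, HMB 5 and control 1, and controls 1 and 3 were the highest controls of the 4 named members. Slc34a2 was the 1 of these 15 genes that passed, with a log2 difference of -0.91 and a standard error of 0.17 (limma adjusted p = 0.0335).

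**Figure D3:**
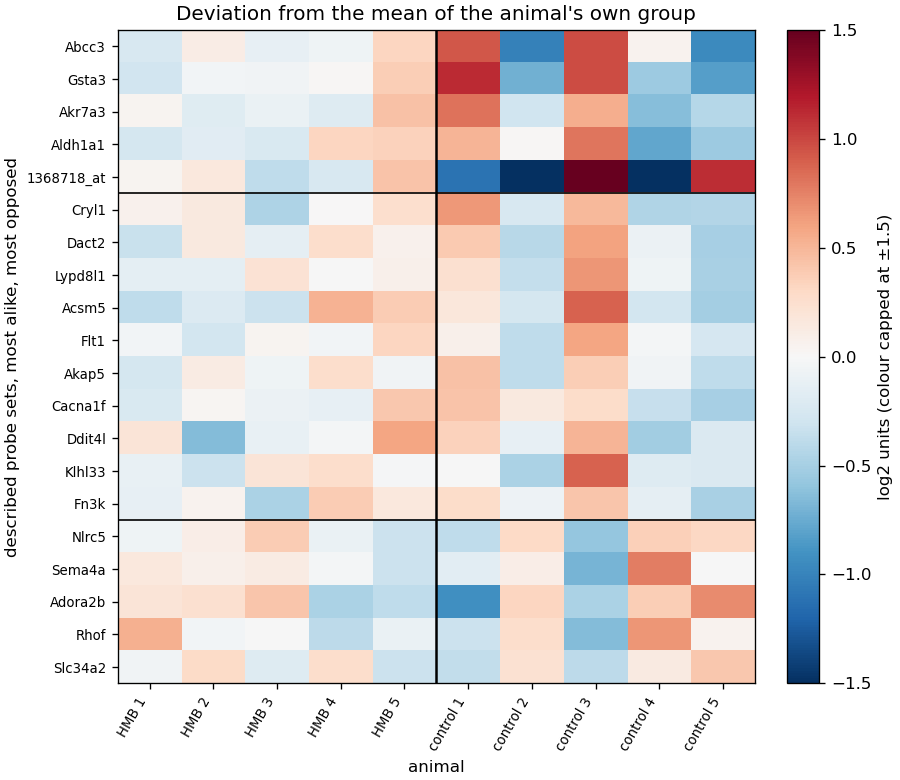
Deviation of each animal from its own group's mean, in log2 units (colour, capped at 1.5 in either direction), for the 5 members (top), the 10 genes most like their shared score (middle) and the 5 most opposed (bottom), with HMB rats left of controls. Controls 1 and 3 are red for the 4 named members, and the members' colours are mostly paler in HMB rats than in controls.

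HMB was compared with control by limma over all probe sets, with Benjamini-Hochberg adjustment and a threshold of 0.05. It called 1 of the 5 measured members, the unnamed probe set, where 1.70% of all probe sets were called in either direction, 0.705% as higher in HMB rats and 0.995% as lower. The unnamed probe set averaged 9.29 ± 0.32 in HMB rats and 4.84 ± 2.55 in controls (SD, n = 5 each). The log2 difference was 4.46 with a standard error of 0.91 (limma adjusted p = 0.0386, 95% interval 2.50 to 6.41). The fit takes a common variance for both groups. Standard errors, p-values and intervals, here and below, thus assume equal spread, whereas the control SD was the larger for every member. The unnamed probe set was also the 1 member whose groups did not overlap, against 2.84% of probe sets with all HMB rats above all controls and 2.93% with all below. This difference and its call were known when the members were chosen and are given as a description.

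The 4 named genes did not pass, although each mean was higher in HMB rats. Gsta3 averaged 8.86 ± 0.24 in HMB rats and 7.63 ± 0.96 in controls (SD, n = 5 each), which differ by 1.23 ± 0.35 (SE, limma adjusted p = 0.0796). Abcc3 averaged 6.13 ± 0.22 in HMB rats and 4.95 ± 0.97 in controls, 1.18 ± 0.36 apart (limma adjusted p = 0.0888). Aldh1a1 differed by 0.71 ± 0.27 (limma adjusted p = 0.142) and Akr7a3 by 0.55 ± 0.25 (limma adjusted p = 0.206). The 95% intervals were 0.47 to 2.00 for Gsta3, 0.41 to 1.95 for Abcc3, 0.13 to 1.29 for Aldh1a1 and 0.0015 to 1.09 for Akr7a3. A difference that misses the threshold with this spread does not show that the groups were alike.

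The calls differed when 1 animal was left out. Without control 1, limma called 3 of the 5 members, Gsta3 with a log2 difference of 1.51 (adjusted p = 0.0257), Abcc3 with 1.41 (adjusted p = 0.0384) and the unnamed probe set with 4.18 (adjusted p = 0.0376), but 5.33% of all probe sets were then called. Without control 3, the unnamed probe set was the 1 probe set called of 31042 (0.00322%), at 5.44 (adjusted p = 0.00734). It did not pass without control 2, 4 or 5 or without HMB 2, 3, 4 or 5 (adjusted p from 0.0600 to 0.0910), where its log2 difference was 4.04, 3.89 or 4.73 without control 2, 4 or 5 and 4.35 to 4.55 without an HMB rat. In 5 of these 7 settings 0 or 1 of all probe sets were called.

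With HMB 1 counted as a control, as its dose label reads, the log2 differences were 3.70 for the unnamed probe set, 1.14 for Gsta3, 1.08 for Abcc3, 0.70 for Aldh1a1 and 0.44 for Akr7a3, and none of the 5 passed where 1.71% of all probe sets were called (limma adjusted p from 0.0927 to 0.338). With HMB 1 left out they were 4.45, 1.30, 1.24, 0.77 and 0.54 in the same order, and the unnamed probe set passed (adjusted p = 0.0407), where 3.21% of all probe sets were called. In the other settings the share of all probe sets called in either direction was as follows. It was 0.403% after cyclic loess, 0.341% after quantile normalization, 2.17% with arrays set to 1 median, 2.98% with array weights, 2.65% without the lowest 25% of levels, 2.02% with a trended robust prior, 0.828% with the GAPDH covariate and 6.75% without HMB 1 and 2. It was 0.209% without HMB 2, 0.783% without HMB 3, 0.00322% without HMB 5 and 0.00% without HMB 4, without control 2, 4 or 5, without HMB 3 to 5 or with the poly-A covariate. HMB 1 itself lay above every control for the unnamed probe set, below control 1 for Akr7a3, below control 3 for Abcc3 and below both for Gsta3 and Aldh1a1.

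**Figure D4:**
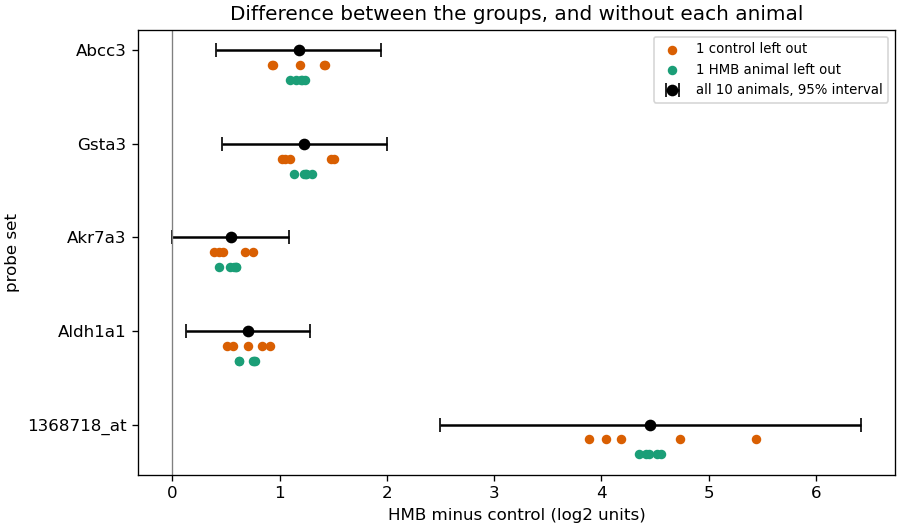
HMB minus control on the log2 scale (horizontal) for each member (vertical), with the limma 95% interval from all 10 animals in black and the estimates without 1 control (orange) or without 1 HMB rat (green). Every estimate is above 0, and those for the unnamed probe set without 1 control run from 3.89 to 5.44.

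Array measures moved in part with these animals. The signal of poly-A transcripts added to the RNA, minus that of the hybridisation controls, ran from -1.96 to -1.47 in HMB rats, with HMB 5 highest, and from -2.19 to -1.90 in controls. Control 1 was the lowest control and control 3 the highest, so these 2 stood at opposite ends. The 3′ minus 5′ signal of GAPDH was 1.90 to 2.09 in HMB 3, 4 and 5, above all controls, and 1.31 and 1.38 in HMB 1 and 2, below all controls. Among controls it was 1.54 in control 1 and 1.76 in control 3, inside the range of the other controls (1.38 to 1.77). With the GAPDH measure as a covariate the unnamed probe set differed by 4.36 (limma adjusted p = 0.0605), and with the poly-A measure by 3.69 (adjusted p = 0.306). The SD of the log2 signals over all probe sets of an array was 2.377 to 2.431 in HMB rats and 2.434 to 2.495 in controls. The groups did not overlap in this SD, and it was not used as a covariate. The part of these array measures in the spread among controls was not tested.

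Markers of liver cell types were set beside the members, and their part in the result was not tested. In whole liver, fewer cells of a type and less RNA per cell cannot be told apart. Of 66 measured markers of 10 cell classes 0 passed in either direction by limma, with 11 (16.7%) at an unadjusted p under 0.05, where 24.1% of all probe sets were under it. Pearson's r of a list's mean with the shared score ran from -0.51 (hepatocyte) to 0.25 (preneoplastic foci). The hepatocyte markers averaged 13.32 to 13.43 in HMB rats and 13.39 to 13.54 in controls on the log2 scale. Markers of macrophages averaged 7.26 to 7.93 in HMB rats, against 7.45, 7.65, 7.12, 8.36 and 6.57 in controls 1 to 5, the widest range among controls of the 10 lists. Bile duct cells also express Abcc3, and 5 of 8 of their markers were measured, with averages of 4.75 to 5.06 in HMB rats and 4.52 to 5.20 in controls, lowest in control 2 and highest in control 4. Krt19, a keratin of bile duct cells, had 4.84 to 5.80 in HMB rats and 4.96 to 6.29 in controls. Pericentral markers averaged 8.13 to 8.38 in HMB rats and 7.93 to 8.29 in controls, with control 1 the lowest.

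Related enzymes and transporters were described from lists. Over 7 pathway lists with 114 measured genes besides the members, limma called 0 in either direction, with 13 (11.4%) at an unadjusted p under 0.05, where 24.1% of all probe sets were under it. None of the genes in the dehydrogenase, reductase, transferase, ABC transporter or NRF2 lists had a control SD of 0.6 or more. The CAR and PXR list had 1 such gene and the list of sex-biased liver genes had 2. Among all 31042 probe sets 211 reached this SD, so a count of 0 in a list says little about the members. The 16 other aldehyde dehydrogenases had a median control SD of 0.09 and a largest of 0.46 (Aldh1a3), and their median log2 difference was 0.02, against 0.01 over all probe sets. Aldh1a2, which makes retinoic acid, had 4.13 to 4.33 in HMB rats and 3.90 to 4.11 in controls (limma adjusted p = 0.120). Aldh1l1, a folate enzyme, was the 1 of 16 with an r of at least 0.7 with the score (0.75), though its control SD was 0.14.

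Among 12 other aldo-keto reductases the median control SD was 0.18. Akr7a2, the neighbour of Akr7a3 on the chromosome, had a control SD of 0.11, with 9.77 to 10.34 in HMB rats and 9.83 to 10.10 in controls. Of 14 other ABC transporters none had a control SD above 0.35 (Abcc4). Abcc4, another sinusoidal exporter, had 5.10 to 5.76 in HMB rats and 4.93 to 5.77 in controls, with control 3 highest and control 4 lowest.

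Of 18 other glutathione S-transferases measured, 6 had an r of at least 0.7 with the score, where 1.97% of all probe sets reached this r. An r takes no account of size, and the control SDs of these 6 were only 0.01 (Mgst1) to 0.22 (Gstt3). Without controls 1 and 3 the r was 0.72 for Gstm4, 0.63 for Gstt3, 0.59 for Gstt1, 0.52 for Gsto1, 0.52 for Mgst2 and 0.38 for Mgst1. Of 10 HMB pairs, 3 (Mgst1) to 8 (Gstt3 and Gsto1) followed the order of the score, and of 10 control pairs, 8 or 9 did. Gstm3, of the mu class, ran the other way (r of -0.69, and -0.65 without controls 1 and 3). The mean of the list was 10.02 to 10.20 in HMB rats, against 10.11 in control 1, 9.96 in control 2, 10.09 in control 3, 10.01 in control 4 and 9.91 in control 5. Gsta1, next to Gsta3 on the chromosome and also of the alpha class, had 12.99 to 13.10 in HMB rats and 13.07, 12.83, 12.85, 12.80 and 12.64 in controls 1 to 5 (log2 difference 0.23, limma adjusted p = 0.139). Its control SD was 0.16, against 0.96 for Gsta3. The 18 had a median log2 difference of 0.10, with 13 above 0 and 5 below.

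Of 21 NRF2 targets and regulators 0 passed by limma, with 3 at an unadjusted p under 0.05 (against 24.1% of all probe sets), and their median log2 difference was 0.00. Nqo1, a quinone reductase, had 7.58, 7.36, 6.80, 7.07 and 7.55 in HMB rats 1 to 5, against 7.26, 6.48, 6.89, 6.55 and 5.93 in controls 1 to 5, so control 1 was the highest control and control 3 the next. Nfe2l2, which encodes NRF2, had 9.47 to 9.82 in HMB rats, against 9.55, 10.44, 9.98, 9.87 and 10.24 in controls 1 to 5, with control 1 lowest. Tkt, a transketolase, had the highest r of the list (0.80), with 10.12 to 10.26 in HMB rats and 10.11 to 10.38 in controls. With Ugdh (0.74) and Mafg (0.70) it made 3 of 21 with an r of at least 0.7, which 1.97% of all probe sets reached. The control SDs of these 3 were 0.11 (Tkt), 0.11 (Ugdh) and 0.24 (Mafg), and the median r of the list was 0.36.

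Of 20 CAR and PXR targets and regulators with a probe set of their own 0 passed by limma, with 1 at an unadjusted p under 0.05 (against 24.1% of all probe sets). Their r with the score had a median of -0.02 and ran from -0.57 (Cyp3a9) to 0.82 (Ugt2b1). Ugt2b1 was the 1 gene of the list with an r of at least 0.7, which 1.97% of all probe sets reached. Cyp3a23-3a1 had an r of -0.43 and Nr1i3 of 0.63. Nr1i3, which encodes CAR, had 8.29, 8.34, 7.05, 8.32 and 9.09 in HMB rats 1 to 5, against 7.93, 7.45, 8.11, 7.44 and 6.54 in controls 1 to 5 (log2 difference 0.73, limma adjusted p = 0.213). Controls 3 and 1 were its highest controls, as for the 4 named members, and HMB 5 its highest HMB rat, as for all 5. Nr1i3 had a larger SD in HMB rats (0.73) than in controls (0.61). Every member had the larger SD in controls, which follows in part from their choice. Over all probe sets the control SD was the larger in 48.1%. The probe set shared by Cyp2b1 and Cyp2b2, classic CAR targets, was looked at after its values were seen. It read 11.17, 11.13, 10.34, 10.70 and 11.36 in HMB rats 1 to 5, against 9.72, 8.83, 10.35, 9.02 and 9.80 in controls 1 to 5, with control 3 the highest control. Its log2 difference was 1.40 (limma adjusted p = 0.0341), and its r with the score was 0.71 (0.54 without controls 1 and 3).

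Chromosome neighbours were looked at next. In the RefSeq table the 4 named members lie on 4 different chromosomes. Of the 24 measured genes nearest to them, 3 on each side, 0 had an r of at least 0.7 with the score. Over all probe sets 1.97% reached this r, so 0 of 24 is near that share. The r of these neighbours ran from -0.70 to 0.62. Their control SDs ran from 0.04 to 0.45, the largest in Anxa1 beside Aldh1a1. The receptor gene Ahr and the NRF2 inhibitor Keap1 had r of -0.15 and -0.02, and Cyp1a1, the target of the aryl hydrocarbon receptor, had 0.10. Of these 3, Cyp1a1 passed, with a log2 difference of 0.92 (limma adjusted p = 0.0380). It had 4.06 to 4.89 in HMB rats and 3.00 to 3.91 in controls, and Ahr had 3.22 to 3.86 over all arrays. The Ahr signals and the control signals of Cyp1a1 were under the array medians (4.33 to 4.41). With no detection calls used, they were not shown to be above background.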

How the data were processed

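Liver RNA of 10 rats was measured on 1 array each. The authors' deposited values are log2 signals, made with RMA (no version given) per the submitters' processing notes. RMA adjusts background, normalizes between arrays and gives 1 value per probe set. No detection calls or raw intensities were used. The 57 control probe sets gave array measures (24 for poly-A transcripts, 18 for hybridisation controls). Groups follow the titles. Replicate numbers follow deposition order, and nothing states that the animals were independent of cage, so p-values measure the spread between these animals.

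Gene names came from the platform's annotation (20826 of 31042 with 1 gene, 436 with several, 9780 with none), with symbols updated through RefSeq, assembly GRCr8. A gene is its brightest probe set. The fit was limma 3.58.1 in R 4.3.3, HMB minus control, lmFit and eBayes, Benjamini-Hochberg over 31042 probe sets, with 8 residual and 4.93 prior degrees of freedom, tested on simulated data first. Figures used matplotlib 3.10.9. Named genes were the members, the 10 genes most like and 5 most unlike their shared score, up to 3 by p and 2 by likeness per pathway list, and a fixed set, with the Cyp2b probe set and chromosome neighbours added after values were seen. Members and lists were chosen with earlier results of these data known. Alternatives were other normalizations, HMB 1 as a control, each animal left out, other variance models, a filter leaving out the lowest 25% of levels, and covariates. Settings without HMB 3 to 5 or without HMB 1 and 2 were chosen after seeing the data.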

Additional observations from a re-analysis of the deposited data

Results flagged for a closer look

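Among 114 groups of 5 animals (the members and the named genes, each in HMB rats and in controls), 2 held an animal set apart from the others by Dixon's test, where chance gives about 1 in 20. Neither was a member. Aldh5a1, an enzyme of GABA breakdown, had 7.96 to 8.12 in HMB rats, against 8.40 in control 3, the animal set apart, and lower values in the other controls, down to 7.95 in control 1. Abcc8, a channel subunit, had 5.09 to 5.69 in HMB rats, against 5.91 in control 2, the animal set apart, and 5.61 to 5.67 in the other controls.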

How the results depend on the processing

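All 5 members kept a positive log2 difference in all 21 alternatives, while the calls changed. The count of members called was 1 with all animals, and 0 after cyclic loess or quantile normalization, with HMB 1 as a control, with the trended robust prior, with the GAPDH or poly-A covariate, and without HMB 3 to 5. In those settings the unnamed probe set differed by 4.58 (adjusted p = 0.0520) after cyclic loess, 4.48 (adjusted p = 0.0549) after quantile normalization, 3.70 (adjusted p = 0.0927) with HMB 1 as a control, 4.46 (adjusted p = 0.0813) with the robust prior, 4.36 with the GAPDH covariate, 3.69 with the poly-A covariate and 4.55 (adjusted p = 0.355) without HMB 3 to 5. Over all alternatives its limma adjusted p ran from 0.00734 to 0.355, and it passed in 7 of 21. Gsta3 (adjusted p from 0.0257 to 0.522) and Abcc3 (from 0.0384 to 0.507) passed in 1, and Akr7a3 and Aldh1a1 in 0. The cause was not tested. Leaving out each animal in turn gave 0 to 3 members called, with log2 differences of 3.89 to 5.44 for the unnamed probe set, 1.03 to 1.51 for Gsta3, 0.93 to 1.42 for Abcc3, 0.51 to 0.91 for Aldh1a1 and 0.39 to 0.75 for Akr7a3. The median HMB SD of the members was then 0.145 to 0.303, lowest without HMB 5, and the median control SD 0.85 to 1.05. The median share of animal pairs ordered alike was then 50% (without HMB 5) to 83.3% in HMB rats and 66.7% to 83.3% in controls. The score spanned 0.24 to 0.997 in HMB rats, smallest without HMB 5, and 2.41 to 2.87 in controls. Where 0 probe sets were called (without control 2, 4 or 5, without HMB 4, without HMB 3 to 5, or with the poly-A covariate), no member could pass. No paired analysis was possible because the replicate numbers follow deposition order and pair no animals. No member had a second probe set, so that alternative was not run.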

Other observations

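Cyp2c12, the P450 known as female-specific in rat liver, had 8.60, 9.34, 9.66, 8.27 and 8.99 in HMB rats 1 to 5, against 10.19, 10.75, 8.88, 9.82 and 10.92 in controls 1 to 5, with control 3 the lowest control. Its log2 difference of -1.14 did not pass (limma adjusted p = 0.0939). Cyp2c11, of the same list of sex-biased liver genes, had 13.168 to 13.256 in HMB rats and 13.202 to 13.235 in controls. These values stand beside the Uty and Xist signals given above, and Cyp2c12 alone does not tell the sex of the rats.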
